A study of Mus musculus with 8 samples.

Results

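Selenoproteins and targets of the transcription factor NRF2 make up much of the enzymatic defence against peroxides. The 10 genes described here are Sepp1, Gpx1, Gpx2, Gpx3, Gpx4, Txnrd1, Nqo1, Gclc, Gclm and Srxn1, chosen by name for this role, with earlier results of these data known, out of 22481 mRNA genes in the expression table. The RNA came from extracellular vesicles (EVs), small membrane-bound particles that cells release, isolated from the left ventricle of male C57BL/6J mice aged 10 weeks. In 4 IR mice the left anterior descending coronary artery was tied for 45 min and reperfused for 24 h before collection (IR-EVs), and 4 mice had a sham operation (S-EVs), with 1 library per mouse. The ventricle was digested with collagenase and the vesicles were pelleted by ultracentrifugation, so the RNA is a bulk sample, in which fewer vesicles of one origin and less RNA per vesicle cannot be told apart.

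Selenoproteins contain selenocysteine, an amino acid that the ribosome inserts at a UGA codon, which otherwise ends translation, when the mRNA carries a selenocysteine insertion sequence in its 3' untranslated region. Most of them are oxidoreductases, and their synthesis depends on selenium, which the plasma carrier selenoprotein P brings from the liver to other tissues. NRF2 is held in the cytosol and degraded through KEAP1 under resting conditions. Electrophiles and oxidants release it, and it then binds antioxidant response elements as a dimer with a small MAF protein and raises transcription of genes for glutathione synthesis, quinone reduction and the thioredoxin system. In the heart, reperfusion brings a burst of reactive oxygen species, and the enzymes of both groups are commonly followed in such experiments.

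The tissue label was checked against marker genes before the levels were read. Over 14 cardiomyocyte markers the summed level was 3.70 to 4.31 FPKM (fragments per kilobase of transcript, scaled to the size of the library) in S-EVs and 1.75 to 3.44 in IR-EVs, with 5 of the 14 at 0 in all 8 libraries, among them Myl2, Nppa and Mb, and a single fragment of Myh6. Over 15 enterocyte markers, all of them detected, it was 22584 to 27824 FPKM in S-EVs and 25766 to 36989 in IR-EVs. Hepatocyte markers summed to 119 to 316 FPKM over both groups, but albumin (Alb), the defining hepatocyte transcript, had 10 fragments in all. The levels below are therefore those of RNA that held next to no cardiomyocyte transcripts and was rich in transcripts of intestinal epithelium, and their origin was not tested. The mRNA tables held 13824442 to 22497260 fragments per library. The factors of the TMM method, which corrects for differing composition of the libraries, ran from 0.886 in IR 2 to 1.09 in sham 1. On the FPKM scale the median of all tested genes was 0.10 log2 units lower in IR-EVs, against -0.0007 in the edgeR fit with TMM, so differences on the FPKM scale should be read relative to that shift.

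All 10 genes were detected in all 8 libraries, with at least 359 fragments (Nqo1) and up to 106280 (Sepp1), and all passed the minimum of a mean of 0.5 FPKM. With edgeR's quasi-likelihood test, Benjamini-Hochberg adjustment over 12716 mRNAs, an adjusted p threshold of 0.05 and a fold change over 2, 0 of the 10 were called higher in IR-EVs (background 0% of all mRNAs tested) and 0 lower (background 0%). At an unadjusted p under 0.05 the count among the 10 was also 0, against 9.73% of all mRNAs tested (1237 genes, 619 or 4.87% higher and 618 or 4.86% lower). DESeq2 and limma also called 0 of the 10, while over all mRNAs DESeq2 called 31 higher and 9 lower and limma 0. No member had groups that did not overlap in FPKM, against 5.25% of all mRNAs tested (IR above sham in 0.873%, IR below sham in 4.37%). The log2 fold change was above 0 for 6 members and below 0 for 4 (background 50.1% below 0), with a median of 0.06, beside a median of -0.0007 over all mRNAs tested.

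**Figure D1:**
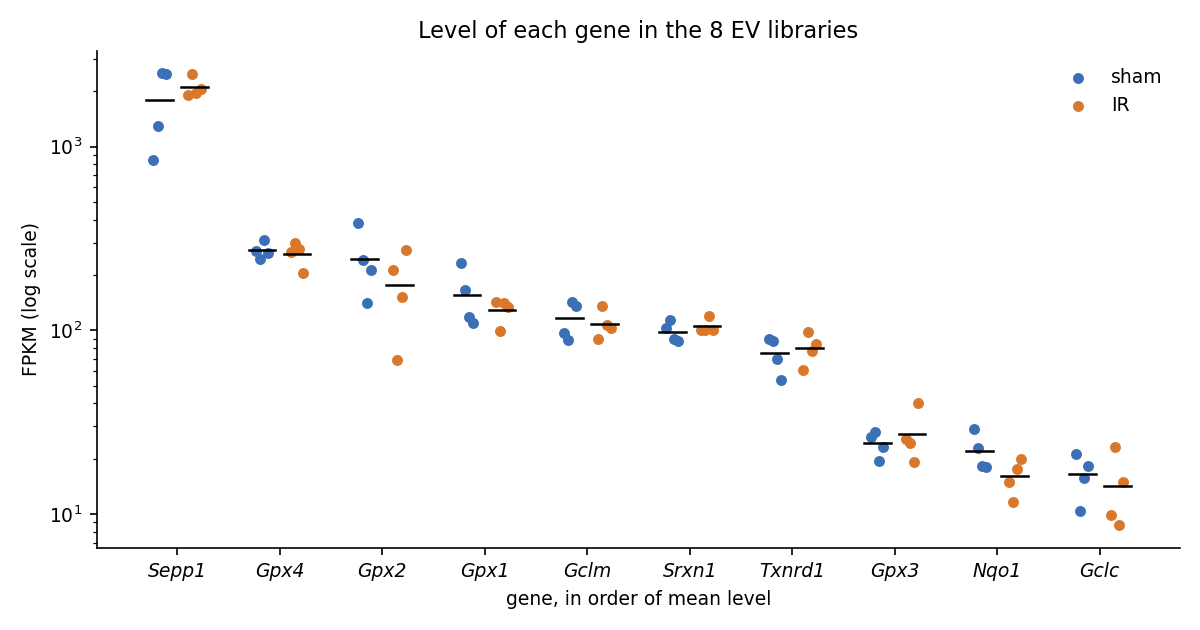
FPKM of the 10 genes on a log axis, in order of the mean over 8 libraries; points are single libraries (sham to the left and IR to the right of each gene), black bars are group means. Sepp1 lies far above the rest, between 846 and 2504 FPKM, and the sham and IR points overlap for every gene.

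Per transcript length, the order of the means over 8 libraries was Sepp1 (1941 FPKM), Gpx4 (267), Gpx2 (211), Gpx1 (143), Gclm (112), Srxn1 (102), Txnrd1 (77.6), Gpx3 (25.8), Nqo1 (19.1) and Gclc (15.3). Sepp1 was above Gpx4 in 8 of 8 libraries, Srxn1 was above Txnrd1 in 8 of 8 and Txnrd1 above Gpx3 in 8 of 8. The other neighbours changed places in at least 1 library. Gpx4 was above Gpx2 in 6 of 8 libraries, Gpx2 above Gpx1 in 7, Gpx1 above Gclm in 5, Gclm above Srxn1 in 4, Gpx3 above Nqo1 in 7 and Nqo1 above Gclc in 6. Gpx1, Gclm and Srxn1 thus had no fixed order.

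The selenocysteine codon of the 6 selenoproteins is shown first, because it is the feature that defines the family, and was read from the GENCODE vM21 transcripts (GRCm38, the same assembly as mm10). Each window holds up to 8 codons on either side, ends at the stop codon where that comes sooner, and has the UGA codon, written as DNA, in capitals.
Sepp1: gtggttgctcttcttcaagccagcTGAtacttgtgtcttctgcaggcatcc
Gpx1: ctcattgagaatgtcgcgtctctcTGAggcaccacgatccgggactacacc
Gpx2: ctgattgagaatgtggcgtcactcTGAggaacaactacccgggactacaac
Gpx3: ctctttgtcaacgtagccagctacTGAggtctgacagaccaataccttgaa
Gpx4: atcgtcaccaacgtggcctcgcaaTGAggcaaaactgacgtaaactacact
Txnrd1: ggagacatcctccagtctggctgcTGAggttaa
The Sepp1 codon is the first of 10 in the transcript Selenop-201 (codon 59 of 380, chr15:3274848-3274850, + strand, exon 2 of 5), and the other 9 all lie in the last exon. The glutathione peroxidases have 1 each, at codon 47 of 201 in Gpx1 (chr9:108339451-108339453, + strand), 40 of 190 in Gpx2 (chr12:76795256-76795258, - strand), 73 of 226 in Gpx3 (chr11:54907256-54907258, + strand) and 129 of 253 in the annotated Gpx4 transcript with the longest coding sequence, Gpx4-201 (chr10:80054737-80054739, + strand). In Txnrd1 it is codon 612 of 613 (chr10:82896037-82896039, + strand), the last before the stop codon apart from 1 glycine codon. Of the 51 bases, Gpx1 and Gpx2 shared 43, and the other pairs of peroxidases shared 24 to 29.

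Sepp1 (annotated as Selenop, chr15:3268547-3280508), the secreted carrier that supplies selenium to other tissues, was the most abundant of the 10 genes and the 13th most abundant mRNA of the table. Its levels were 846, 1294, 2504 and 2487 FPKM in sham 1 to 4 and 1899, 2481, 1959 and 2060 FPKM in IR 1 to 4. Sham 1 and sham 2 were the lowest of the 8 libraries, and sham 3 and sham 4 were just above the highest IR-EV library. The group means were 1783 ± 843 FPKM (SD, n = 4) in S-EVs and 2099.6 ± 263 FPKM (SD, n = 4) in IR-EVs. The spread thus differed by group: the highest library was 2.96 times the lowest in S-EVs and 1.31 times in IR-EVs. The log2 fold change was 0.32 ± 0.37 (SE), with a 95% interval of the fold from 0.706 to 2.21 and an edgeR adjusted p of 0.797, and the exact permutation test gave p = 0.457 (two-sided, n = 4 and 4, smallest possible p 0.0286). Without sham 1 the log2 fold change was 0.067, and without sham 3 it was 0.55. Ccdc152, which overlaps Sepp1 on the opposite strand, was listed at 0 FPKM in all 8 libraries.

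Gpx4, Gpx2, Gpx1 and Gpx3 encode glutathione peroxidases, which reduce peroxides with glutathione and differ in where they act. Gpx4 (chr10:80047166-80056439) encodes the enzyme that reduces phospholipid hydroperoxides inside membranes and guards cells against ferroptosis. It was at 271, 246, 311 and 263 FPKM in sham 1 to 4 and at 267, 298, 276 and 206 FPKM in IR 1 to 4. The 8 values lay close together, apart from IR 4 at the low end and sham 3 at the high end, and the within-group SD on the log2 scale (0.191) was smaller than the median over all tested genes (0.265). The means were 273 ± 27.7 FPKM and 262 ± 39.1 FPKM (SD, n = 4 each). The edgeR log2 fold change was 0.04 ± 0.17 (SE; fold interval 0.795 to 1.33, adjusted p = 0.952 by edgeR). Its sign depended on the scaling and on single libraries: it was -0.07 with limma on log2(FPKM + 0.1), -0.03 without sham 2 and -0.07 without IR 2.

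Gpx2 (chr12:76792333-76795554, minus strand), the gastrointestinal glutathione peroxidase, which in the gut is found mainly in the crypts and is also an NRF2 target, was the most variable member. It was at 384, 240.3, 141 and 213 FPKM in sham 1 to 4 and at 212, 69.1, 152 and 273 FPKM in IR 1 to 4. Sham 1 and IR 2 were the extremes and differed 5.55-fold. The within-group SD of log2(FPKM + 0.1) was 0.739, larger than that of 95.2% of all genes tested. The means were 245 ± 102 FPKM and 176 ± 86.8 FPKM (SD, n = 4 each), with a log2 fold change of -0.38 ± 0.37 (SE; fold interval 0.432 to 1.37, adjusted p = 0.750 by edgeR). The log2 fold change was -0.11 without sham 1 and -0.13 without IR 2. Fntb, which overlaps Gpx2 on the opposite strand, was at 3.60 to 5.83 FPKM.

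Gpx1 (chr9:108338903-108340343), the cytosolic and most widely expressed glutathione peroxidase, was at 232, 166, 118 and 109.7 FPKM in sham 1 to 4 and at 142, 99.2, 141 and 134 FPKM in IR 1 to 4. Here too sham 1 was the highest and IR 2 the lowest library, and the other 6 lay between them with the groups interleaved. The means were 156 ± 56.1 FPKM and 129 ± 20.2 FPKM (SD, n = 4 each), with a log2 fold change of -0.16 ± 0.20 (SE; fold interval 0.659 to 1.22, adjusted p = 0.818 by edgeR). Without sham 1 the log2 fold change was 0.06, of the opposite sign.

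Gpx3 (chr11:54902453-54910377) encodes the secreted plasma form. It was at 26.3, 27.9, 19.5 and 23.3 FPKM in sham 1 to 4 and at 25.7, 24.4, 19.2 and 40.3 FPKM in IR 1 to 4. IR 4 was the highest library, and the other IR-EV values lay within or just below the range of the S-EVs. The means were 24.3 ± 3.68 FPKM and 27.4 ± 9.04 FPKM (SD, n = 4 each), with a log2 fold change of 0.27 ± 0.18 (SE; fold interval 0.912 to 1.59, adjusted p = 0.629 by edgeR).

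Put together, the 4 peroxidase mRNAs summed to 698 ± 149 FPKM in S-EVs and 594 ± 75.3 FPKM in IR-EVs (SD, n = 4 each). Gpx4 made up 40.4 ± 9.88% of this sum in S-EVs and 45.1 ± 12.2% in IR-EVs, Gpx2 34.1 ± 7.51% and 28.6 ± 11.7%, Gpx1 22.0 ± 3.51% and 21.7 ± 1.73%, and Gpx3 3.53 ± 0.542% and 4.59 ± 1.26%. For each of the 4 genes the difference between the group means was smaller than the SD among IR-EVs, and for Gpx3 it was larger than the SD among S-EVs. In sham 1 Gpx2 held 42.0% and Gpx4 29.7%, and in IR 4 the same shares were 41.8% and 31.6%. In IR 2 they were 14.1% and 60.7%, so that the Gpx2 level was 0.232 of the Gpx4 level there and 1.42 of it in sham 1. The share of Gpx1 stayed between 18% and 25.4% in all libraries.

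**Figure D2:**
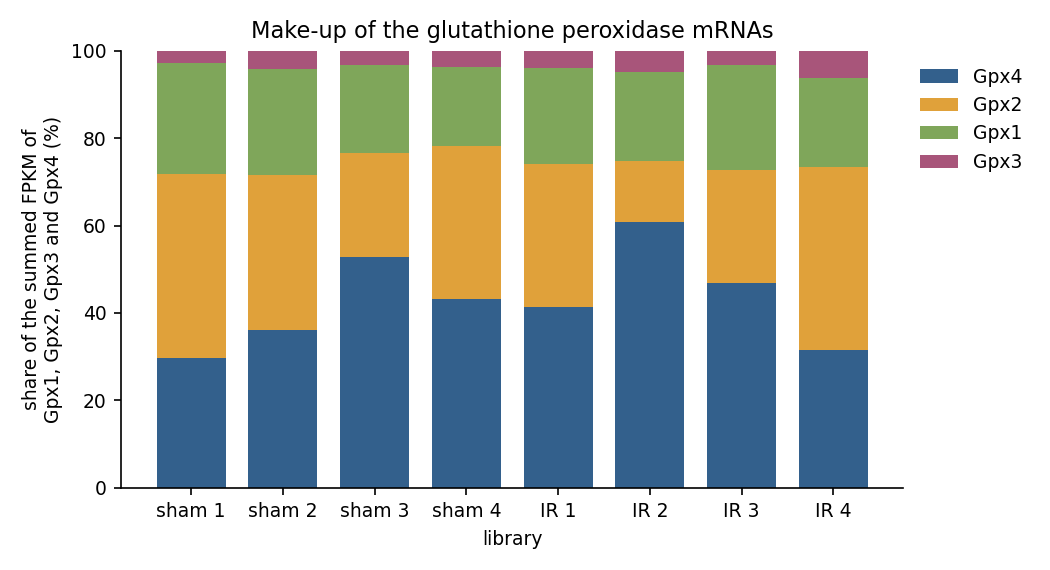
Share of each glutathione peroxidase in the summed FPKM of Gpx1, Gpx2, Gpx3 and Gpx4, in percent, for the 4 sham and 4 IR libraries. The share of Gpx2 runs from 14.1% in IR 2 to 42.0% in sham 1, mirrored by Gpx4, while Gpx1 stays between 18% and 25.4%.

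Txnrd1 (chr10:82833951-82897712) encodes the cytosolic thioredoxin reductase, which keeps thioredoxin reduced and belongs to both groups, as a selenoprotein and as an NRF2 target. It was at 89.9, 86.9, 70.02 and 53.5 FPKM in sham 1 to 4 and at 60.9, 97.5, 77.3 and 84.3 FPKM in IR 1 to 4. IR 2 was the highest and sham 4 the lowest library, and the groups overlapped over most of their range. The means were 75.1 ± 16.9 FPKM and 80.0 ± 15.2 FPKM (SD, n = 4 each), with a log2 fold change of 0.21 ± 0.19 (SE; fold interval 0.867 to 1.55, adjusted p = 0.714 by edgeR).

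For the NRF2 targets, the antioxidant response element is the sequence that ties them together. Its core was searched as TGACNNNGC and TGAGNNNGC on both strands, in the RefSeq windows of 250 bases before to 50 after each annotated start (GRCm38.p6). Of the 10 genes, 9 had a window (Gclc was not analysed here), and 3 held a match, namely Srxn1, Gclm and Txnrd1. Over all genes the share was 30.8%, and over all 32851 windows 27.8%, so a match is common. The matches are shown with 10 bases on either side, on the strand of the gene and with the 9 letters of the core in capitals; where these begin with GC the core reads on the other strand.
Srxn1 at -158: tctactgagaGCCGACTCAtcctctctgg
Srxn1 at -45: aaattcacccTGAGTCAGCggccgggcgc
Srxn1 at +29: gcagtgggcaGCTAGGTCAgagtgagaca
Gclm at -134: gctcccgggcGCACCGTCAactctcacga
Txnrd1 at -92: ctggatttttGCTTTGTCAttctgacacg
Positions are those of the first capital letter, counted from the start of transcription. The Srxn1 windows are chr2:152105356-152105384, chr2:152105469-152105497 and chr2:152105542-152105570, the Gclm window is chr3:122245413-122245441, and the Txnrd1 window, which belongs to 1 of 3 annotated starts, is chr10:82859104-82859132, all on the + strand. For Nqo1, Sepp1, Gpx1, Gpx2, Gpx3 and Gpx4 these letters are not in the windows searched.

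Srxn1 (chr2:152105516-152111376), which encodes sulfiredoxin, the enzyme that rescues over-oxidised peroxiredoxins, was the steadiest member. It was at 103, 113, 89.3 and 87.2 FPKM in sham 1 to 4 and at 100.06, 100.6, 119.5 and 100.1 FPKM in IR 1 to 4. Of the IR-EVs, IR 1, IR 2 and IR 4 lay within 1 FPKM of each other, but were spread out in TMM-scaled fragments. IR 3 stood above them and above all S-EVs. The within-group SD on the log2 scale was 0.154, and only 18.1% of tested genes had a smaller one. The means were 98.1 ± 12.2 FPKM and 105 ± 9.65 FPKM (SD, n = 4 each). With the smallest standard error of the 10 genes, its log2 fold change of 0.21 ± 0.12 (SE) had a fold interval of 0.963 to 1.38 and an edgeR adjusted p of 0.572.

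Gclm (chr3:122245557-122270732) and Gclc (chr9:77754535-77794485) encode the modifier and the catalytic subunit of glutamate-cysteine ligase, the rate-limiting enzyme of glutathione synthesis. Gclm was at 97.1, 88.9, 143 and 136 FPKM in sham 1 to 4 and at 89.9, 135, 107 and 103 FPKM in IR 1 to 4. Gclc was at 21.3, 10.4, 15.7 and 18.3 FPKM in sham 1 to 4 and at 9.88, 23.1, 8.69 and 14.9 FPKM in IR 1 to 4. Gclm mRNA was thus more abundant in FPKM than Gclc mRNA in every library, by 7.40 ± 2.02 times in S-EVs and 8.54 ± 2.86 times in IR-EVs (SD, n = 4 each). The lowest ratio was 4.56 in sham 1 and the highest 12.3 in IR 3. For Gclm the means were 116 ± 27.0 FPKM in S-EVs and 109 ± 19.1 FPKM in IR-EVs (SD, n = 4 each). Its edgeR log2 fold change, taken from TMM-scaled counts, had the opposite direction, at 0.07 ± 0.24 (SE). The fold interval was 0.720 to 1.54 and the edgeR adjusted p 0.941. For Gclc the means were 16.4 ± 4.61 and 14.1 ± 6.53 FPKM (SD, n = 4 each), with a log2 fold change of -0.09 ± 0.34 (SE). The fold interval was 0.549 to 1.60 and the edgeR adjusted p 0.950. Neither sign was stable. The Gclm value was -0.08 with limma on log2(FPKM + 0.1) and -0.04, -0.05 and -0.13 without sham 1, sham 2 and IR 2, and the Gclc value was 0.01, 0.05 and 0.08 without sham 1, IR 1 and IR 3.

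Nqo1 (chr8:107388225-107403206, minus strand), the NAD(P)H quinone dehydrogenase that is often used as a marker of NRF2 activity, had the smallest p of the 10 genes. It was at 29.1, 22.9, 18.3 and 17.96 FPKM in sham 1 to 4 and at 14.9, 11.6, 17.6 and 20.004 FPKM in IR 1 to 4. The S-EVs held the highest libraries and the IR-EVs the lowest, but IR 4 was above sham 3 and sham 4, so the groups overlapped. The means were 22.1 ± 5.21 FPKM and 16.0 ± 3.61 FPKM (SD, n = 4 each). The log2 fold change was -0.35 ± 0.16 (SE), with a fold interval of 0.612 to 1.00 and an edgeR p of 0.0506 that was 0.512 after adjustment over 12716 mRNAs. The exact permutation test gave p = 0.114 (two-sided, n = 4 and 4). By edgeR's p, Nqo1 was number 1252 of the 12716 mRNAs.

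**Figure D3:**
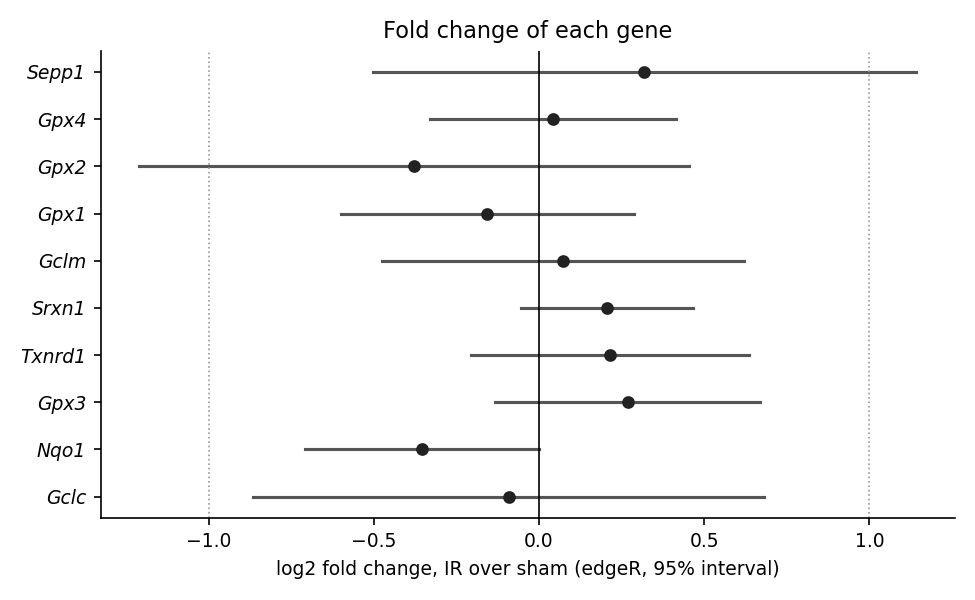
Log2 fold change of IR over sham for each of the 10 genes (points) with its 95% interval (lines), from edgeR; the dotted lines mark a change of 2-fold. All 10 intervals include 0, from the narrow one of Srxn1 (-0.054 to 0.47) to the wide ones of Gpx2 (-1.21 to 0.46) and Sepp1 (-0.50 to 1.14).

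The width of these intervals shows which changes the values of each gene leave possible. They are not adjusted for the number of mRNAs tested, so they do not show which changes would have been called. The interval stayed within a 2-fold change in either direction for Gpx1, Gpx3, Gpx4, Txnrd1, Nqo1, Gclc, Gclm and Srxn1. For Sepp1 it reached a rise of 2.21-fold and for Gpx2 a fall to 0.432 of the sham level. The within-group SD on the log2 scale was above the median of all mRNAs tested (0.265) in 8 of the 10 genes and below it in Gpx4 and Srxn1. After Gpx2 it was largest in Sepp1 (0.555, above 88.3% of genes) and Gclc (0.545, above 87.7%), and for Gpx1, Gpx3, Nqo1, Txnrd1 and Gclm it was above 57.3% to 73.2% of genes.

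On the FPKM scale, the libraries that stood at the ends were the same for several members. Sham 1 was the highest library for Gpx1, Gpx2 and Nqo1 and the lowest for Sepp1. IR 2 was the lowest for Gpx1, Gpx2 and Nqo1 and the highest for Txnrd1 and Gclc. Sham 3 was the highest for Sepp1, Gpx4 and Gclm. Some of these extremes held for FPKM only. In TMM-scaled fragments relative to library size, sham 1 was again highest for Gpx1, Gpx2 and Nqo1, and IR 2 lowest for Gpx2 and Nqo1. The lowest Gpx1 library was then sham 4 (117), with IR 2 at 119. For Sepp1 (5349), Gpx4 (260) and Gclm (241) the highest library was IR 2 in place of sham 3. Relative to their mean on the log2(FPKM + 0.1) scale, Gpx2, Gpx1 and Nqo1 were at 1.02, 0.75 and 0.65 in sham 1 and at -1.46, -0.48 and -0.66 in IR 2, while Sepp1 was at -1.12 in sham 1 and 0.43 in IR 2. The summed level of 8 markers of crypt and cycling cells, all of them detected, had the same extremes, with 416, 325, 227 and 250.4 FPKM in sham 1 to 4 and 233, 147, 276 and 193 FPKM in IR 1 to 4. The median over these crypt markers was also highest in sham 1 (24.8 FPKM) and lowest in IR 2 (9.69). Lgr5, one of them, was highest in sham 2 (2.31 FPKM) and lowest in IR 4 (1.44). Olfm4, another, held a large part of the sum (202 of 416 FPKM in sham 1). It was highest in sham 1 and lowest in IR 4 (61.5 FPKM), with IR 2 at 64.0. The hepatocyte markers also summed highest in sham 1 (316 FPKM) and lowest in IR 2 (119), but only 3 of these 8 had a mean of at least 0.5 FPKM. The median over the hepatocyte markers was highest in sham 4 (0.299 FPKM) and lowest in IR 3 (0.0685). The enterocyte markers were highest in IR 2 (36989 FPKM). The part of these cell types in the levels of the members was not tested.

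**Figure D4:**
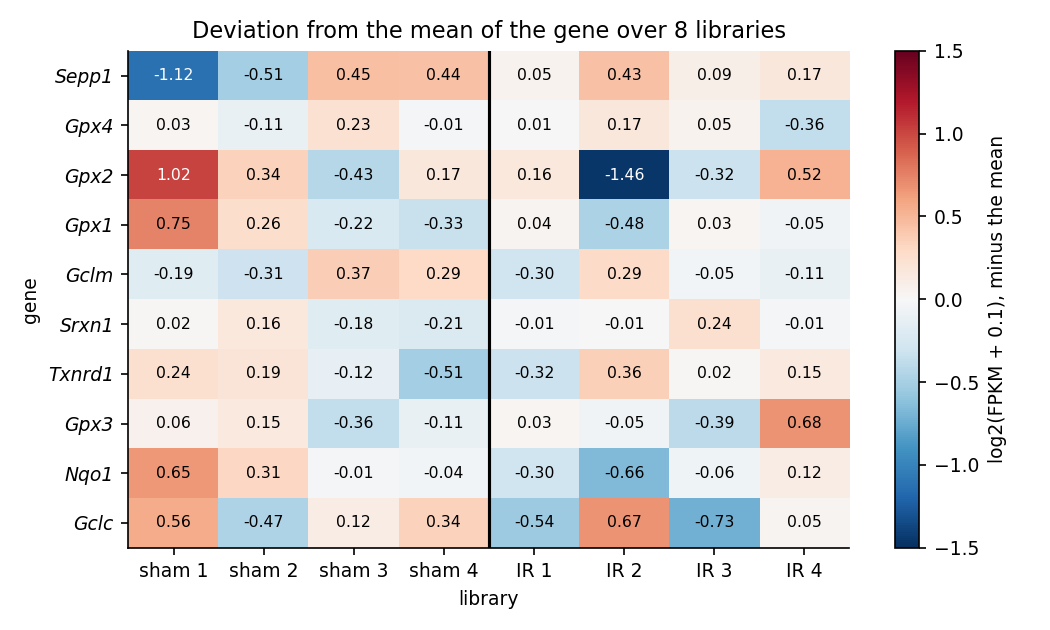
Deviation of each gene from its own mean over 8 libraries, on the log2(FPKM + 0.1) scale, for the 4 sham libraries (left of the line) and the 4 IR libraries (right). Sham 1 and IR 2 hold the strongest colours, with opposite signs for Gpx2, Gpx1, Nqo1 and Sepp1, and for no gene do all sham libraries lie on one side of all IR libraries.

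Likeness of pattern was measured as the root mean square difference of log2(FPKM + 0.1), with each gene centred on its own mean over 8 libraries, across all mRNAs tested. The closest mRNAs were Ubb (0.05) and Pja1 (0.05) for Srxn1, Cyp4f14 (0.05) and Capn1 (0.07) for Gpx4, and Actl6a (0.06) and Kcnn4 (0.06) for Nqo1. They were Phlpp2 (0.07) and Crip1 (0.07) for Gclm, Grk5 (0.07) and Agpat2 (0.10) for Txnrd1, and Sars2 (0.09) and Phb (0.09) for Gpx1. For Gpx3 they were Tmtc1 (0.10) and Snx21 (0.11). The more variable members had no mRNA as close: Lrp12 (0.17) and Cyp4v3 (0.18) for Sepp1, Plek2 (0.16) and Pank3 (0.17) for Gclc, and D17H6S56E-5 (0.21) and Pop1 (0.22) for Gpx2. The measure is not scaled to the spread of a gene, so larger distances for more variable genes are partly built into it. Among the members themselves the closest pairs were Gpx1 with Nqo1 (0.20) and Gpx4 with Gclm (0.22), and no member was among the 2 mRNAs closest to another. The 8 libraries behind each value are the same, so shared composition enters all of them.

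Around the members, 18 further selenoproteins were looked up, of which 17 were in the table and 15 passed the minimum. At an unadjusted p under 0.05, 4.87% of all mRNAs tested were higher in IR-EVs and 4.86% lower. These shares are the background for this list and for those below. Of the 15 genes, 1 was higher at that threshold and 0 lower, and 0 were called, with a median log2 fold change of -0.002. The 1 was Dio1, the type I deiodinase that activates thyroid hormone. It was at 8.38, 34.2, 14.1 and 20.02 FPKM in sham 1 to 4 and at 41.5, 44.0, 46.6 and 23.4 FPKM in IR 1 to 4, so that only IR 4 fell below sham 2. Its log2 fold change was 1.14 ± 0.41 (SE), with an edgeR adjusted p of 0.478. Sep15, a selenoprotein of the endoplasmic reticulum, was at 141 ± 17.1 and 119 ± 18.7 FPKM (SD, n = 4 each), with an edgeR adjusted p of 0.664. Dio2 and Dio3, the other deiodinases, were below the minimum.

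Of 9 genes for selenocysteine insertion and selenium handling, 8 were tested, and at an unadjusted p under 0.05 the count was 0 in both directions, with a median log2 fold change of -0.16. Scly, the selenocysteine lyase that recovers selenium, had a log2 fold change of 0.27, and Eefsec, the elongation factor that brings selenocysteinyl-tRNA to the ribosome, of -0.25. Lrp2, which takes up selenoprotein P in the kidney, was below the minimum.

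Of 10 regulators of NRF2, 9 were tested and the count at an unadjusted p under 0.05 was 0 in both directions, with 7 log2 fold changes above 0 and 2 below and a median of 0.11. Those with the smallest p were Rbx1 (-0.23), a subunit of the ubiquitin ligase that KEAP1 serves, the dimer partners Mafg (0.26) and Mafk (0.19), and the repressor Bach1 (0.19).

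Among 22 other NRF2 targets, 21 were tested, and at an unadjusted p under 0.05, 0 were higher in IR-EVs and 1 was lower, with 7 log2 fold changes above 0 and 14 below and a median of -0.07. The 1 was Gsr, the glutathione reductase that returns oxidised glutathione to the reduced form for the peroxidases. It was at 109.5, 61.9, 47.8 and 51.4 FPKM in sham 1 to 4 and at 37.6, 29.2, 40.5 and 55.2 FPKM in IR 1 to 4. As for Gpx1, Gpx2 and Nqo1, sham 1 was the highest and IR 2 the lowest library. The log2 fold change was -0.64 ± 0.23 (SE), with an edgeR adjusted p of 0.465. Hmox1, the heme oxygenase that NRF2 and the loss of BACH1 switch on, was at 1.46, 3.69, 0.930 and 1.05 FPKM in sham 1 to 4 and at 4.25, 0.840, 1.78 and 5.57 FPKM in IR 1 to 4. IR 1 and IR 4 lay above all S-EVs, and IR 2 below them, with a log2 fold change of 0.89 ± 0.59 (SE) and an edgeR adjusted p of 0.627. The ferritin heavy chain Fth1 had a log2 fold change of 0.54 and the pentose phosphate enzyme G6pdx of -0.20. Slc7a11, the cystine transporter, was below the minimum.

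**Figure D5:**
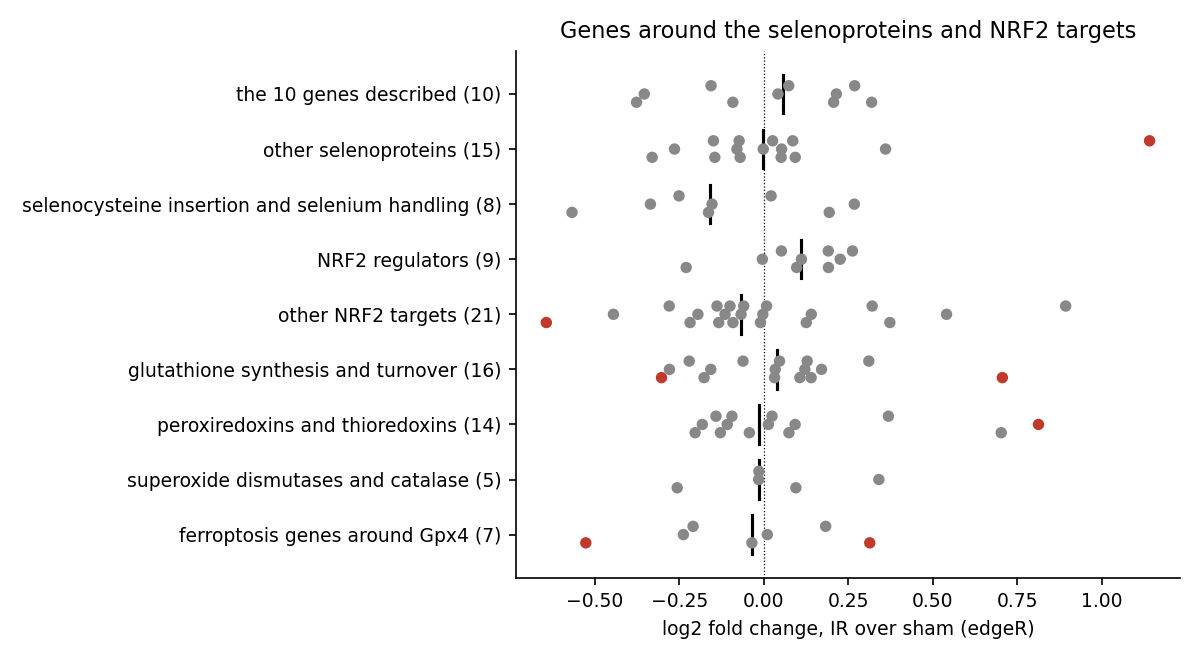
Log2 fold changes of IR over sham from edgeR for the 10 genes and for the genes of each list that passed the minimum (number in brackets); red points have an unadjusted p under 0.05, black bars are medians. The medians lie between -0.16 and 0.11, and of the points past that threshold 4 lie to the right and 3 to the left.

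Enzymes that share substrates with the members were looked up next. Of 16 tested genes for glutathione synthesis and turnover, 1 was higher and 1 lower at an unadjusted p under 0.05, namely Gpx8, a peroxidase of the endoplasmic reticulum without selenocysteine (log2 fold change 0.71, edgeR adjusted p = 0.464), and the glyoxalase Glo1 (-0.30, edgeR adjusted p = 0.480). Of 14 tested peroxiredoxins, thioredoxins and related genes, 1 was higher and 0 were lower. This was Sesn1, a sestrin and a known p53 target, at 27.6 ± 4.27 and 47.6 ± 9.81 FPKM (SD, n = 4 each), with every IR library above every sham library, a log2 fold change of 0.81 ± 0.17 (SE), an edgeR p of 0.000975 and an adjusted p of 0.455. Of 5 superoxide dismutase and catalase genes the count was 0 in both directions. Sod1, the cytosolic superoxide dismutase, had every IR library below every sham library in FPKM (292 ± 32.9 and 226 ± 22.8 FPKM, SD, n = 4 each). However, its log2 fold change was -0.26, with an edgeR adjusted p of 0.565. Glrx5, of the glutathione list, also had every IR library below every sham library. Over all mRNAs tested the groups did not overlap in 5.25% (IR above sham in 0.873%, IR below sham in 4.37%), which is the background for these 3 genes. Of 7 tested ferroptosis genes around Gpx4, 1 was higher, the ferritinophagy receptor Ncoa4 (0.31), and 1 lower, the transferrin receptor Tfrc (-0.53), with edgeR adjusted p of 0.512 and 0.479.

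The lncRNA table listed 6 transcripts at the loci of the members. AK020357, 527 nt long and transcribed away from Srxn1, was at 4 to 24 fragments per library, with 1.38 ± 1.02 FPKM in S-EVs and 1.31 ± 0.643 FPKM in IR-EVs (SD, n = 4 each), a log2 fold change of 0.00 ± 0.59 (SE) and an edgeR adjusted p of 0.999. AK153802, antisense within an intron of Txnrd1, had 0 to 8 fragments per library, and AK157369, antisense to Nqo1, 0 to 4, too few to test. The 3 others, 1 at Gclm and 2 at Gpx4, were listed at 0 in all 8 libraries. Over 3088 lncRNAs tested, edgeR called 0 (0%), and 7.06% had an unadjusted p under 0.05.

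Some reads of the members may have been shared with other loci. The annotation holds pseudogenes named Gpx2-ps1 and Gpx4-ps2, and how reads of such copies were assigned is not given in the sources used here, so the levels of Gpx2 and Gpx4 are uncertain to that extent. Gclm overlaps a transcribed pseudogene (Gm6061) and Txnrd1 the gene Eid3, both on the same strand.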

How the data were processed

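The authors depleted the EV RNA of 4 sham and 4 IR mice of ribosomal RNA and made stranded, paired-end libraries. Adaptors were cut with cutadapt 1.9.3, reads were mapped with HISAT2 (mm10), and Cuffdiff gave the expression values. The strand setting of the counting, the annotation and the other versions are not given in the sources used here. The FPKM values deposited by the authors correct for how long a transcript is and for sequencing depth. The estimated counts deposited by the authors were taken to be Cuffdiff fragments multiplied by 1 factor per library, which the sources do not state. Counts were divided by the commonest value of their library (0.763 to 1.18), taken as 1 fragment, and rounded. Before rounding, 88.2% to 89.8% of the mRNA values above 0 lay close to a whole number. For the lncRNA values it was 66.6% to 68.3%, so rounding changed more of them. Entries of 1 symbol with different values were summed (70 genes), and each member had 1 entry.

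Groups were compared in R 4.3.3 with edgeR 4.0.16 (TMM, robust quasi-likelihood, two-sided) over mRNAs with a mean of at least 0.5 FPKM. Genes were called at a fold change above 2 with an adjusted p below 0.05. DESeq2 1.42.0 and limma 3.58.1 were alternatives, with other scaling, no filter, a replicate block and each library left out. The exact permutation test ran over all 70 splits of log2(FPKM + 0.1). Members, lists and tests were chosen with earlier results of these data known. The genes named are all members, up to 4 genes of each list with the smallest p and the 2 mRNAs most like each member. The tables were made with Python 3.11.15, numpy 2.4.6 and pandas 2.3.3 and plots with matplotlib 3.10.9. Each library is 1 mouse. Libraries held 13824442 to 22497260 mRNA fragments, and the biological coefficient of variation was 22.0%.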

Additional observations from a re-analysis of the deposited data

Results flagged for a closer look

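On the FPKM scale, the Srxn1 level of IR 3 (119.5 FPKM) stood apart from the other 3 IR-EV libraries, which lay between 100.06 and 100.6 FPKM. The gap was 0.971 of the whole range of the group, which is above the critical value of Dixon's test for 4 samples. In TMM-scaled fragments relative to library size, Srxn1 was at 303, 328, 360 and 271 in IR 1 to 4. IR 3 was again the highest, but IR 1, IR 2 and IR 4 did not lie close together. The flag thus holds for FPKM only. With 20 groups examined (10 genes in each of the S-EVs and IR-EVs), chance alone flags about 1 in 20.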

How the results depend on the processing

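The call of no member changed under any of the alternatives run. Of 140 values of the members' log2 fold changes under 14 settings each, 127 kept their direction and 13 reversed, in 4 genes, and the smallest adjusted p of a member was 0.402. The reversed values were 0.061 for Gpx1 without sham 1. For Gpx4 they were -0.0674 and -0.0672 in limma with a pseudocount of 0.1 and 1, -0.029 without sham 2 and -0.065 without IR 2. For Gclc they were 0.015, 0.047 and 0.085 without sham 1, IR 1 and IR 3. For Gclm they were -0.0814 and -0.0809 in limma with the same pseudocounts, and -0.040, -0.050 and -0.13 without sham 1, sham 2 and IR 2. Taken as mean differences of TMM-scaled fragments in place of FPKM, Gpx4 (0.031) and Gclm (0.0801) also changed sign. Leaving out 1 library gave ranges of -0.28 to 0.061 for Gpx1, -0.065 to 0.16 for Gpx4, -0.51 to 0.085 for Gclc and -0.13 to 0.22 for Gclm. Without a change of sign they were 0.067 to 0.55 for Sepp1, -0.61 to -0.11 for Gpx2, 0.086 to 0.40 for Gpx3, 0.052 to 0.32 for Txnrd1, -0.43 to -0.23 for Nqo1 and 0.14 to 0.27 for Srxn1. Relative to the median of all tested genes, the log2 FPKM differences were 0.035 for Gpx4 and 0.021 for Gclm, of the same sign as in edgeR. The cause of the sign changes was not tested.

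Over all mRNAs, edgeR called 0 higher and 0 lower, DESeq2 called 31 and 9, and an unadjusted p under 0.05 with no fold criterion gave 619 and 618. Leaving out 1 library gave 0 to 3 higher and 0 to 1 lower, with 3 and 1 reached without sham 2. The replicate number as a block gave 0 calls and moved no member across the threshold (log2 fold change of Sepp1 0.48, Gpx2 -0.43, Nqo1 -0.35). Samples of the same number did not deviate together (r = -0.13, -0.29, 0.04 and 0.05). This cannot decide whether the numbers pair mice, which the labels do not say. The median log2 fold change of the glutathione list was -0.02 without sham 2 or IR 2, against 0.04, and that of the superoxide dismutase and catalase list 0.10 without IR 4, against -0.02. As each member had 1 entry, no entry could be tested alone. With 4 mice per group, the exact test cannot give a p under 0.0286.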
